A study of Mus musculus with 12 samples.

Results

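Mitochondrial ribosomal protein genes were examined in the mouse submandibular gland (SMG), as every protein-coding gene whose symbol starts with Mrpl or Mrps followed by a number. The rule uses names only. It found 78 genes among the 21599 protein-coding genes and 56065 genes of the count table, and all 78 were among the 17893 genes with enough counts to be tested. The same name pattern also matched 6 pseudogenes, which were left out.

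The data are bulk RNA-sequencing of 12 SMGs from mice aged 8 weeks, 3 mice in each of 4 groups. Wild-type females and wild-type males were C57BL/6J mice. Knockout females and knockout males were C57BL/6J-Pou2f3-/- mice (allele Pou2f3em1Cbwi, a germline allele, so that the gene is disrupted in every cell), which lack the transcription factor that tuft cells, rare chemosensory epithelial cells, need to form. The comparisons ask how SMG gene expression differs without tuft cells in each sex. No group received a treatment, both strains came from a single supplier, and the sources used here do not say whether wild-type and knockout mice were littermates.

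The mitochondrial ribosome, or mitoribosome, translates the mRNAs encoded by mitochondrial DNA, all of which code for core subunits of the respiratory chain and ATP synthase. Its rRNAs are made inside the organelle, but every one of its proteins is encoded in the nucleus, made in the cytosol and imported, so its assembly needs both genomes. The small subunit decodes the mRNA and the large subunit joins the amino acids. Many of its proteins have counterparts in bacterial ribosomes and many do not. Salivary striated ducts are rich in mitochondria.

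Total estimated counts were 47031917 to 67881902 per library, and a member gene had 18 to 1251 counts in a library. Levels are given in CPM, the counts of a gene per 1000000 counts of its library, with library sizes scaled by the trimmed mean of M-values (TMM). The scaling factors were 0.625 to 0.759 in wild-type females, 0.902 to 1.03 in knockout females and 1.04 to 1.45 in males, and the 20 most abundant RNAs took 53.2% to 80.0% of the counts. Pou2f3 itself had 0 to 10 counts in the 6 wild-type libraries and 0 to 3 in the 6 knockout libraries, so at this depth it could not check the genotype labels. Of the other tuft cell markers, Gnat3 and Il25 were at 0 in every library and Trpm5 had at most 4 counts. The fifth, Dclk1, was detected in every library, at 16.8, 19.6 and 15.3 CPM in wild-type females and 21.0, 20.1 and 18.1 CPM in knockout females, and was not called (0.19 ± 0.12 SE, adjusted p = 0.225). Acinar and granular convoluted tubule markers of the SMG were abundant, with a summed level of 40409, 42222 and 46859 CPM for 6 acinar markers in wild-type females. In bulk tissue, fewer cells of a type and less RNA per cell cannot be told apart.

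Of the 78 members, 51 encode proteins of the large subunit and 26 of the small subunit. Mrps18a and Mrps30 are counted with the large subunit, where their proteins (mL66 and mL65) sit despite the symbol. Mrps36 encodes a subunit of the alpha-ketoglutarate dehydrogenase complex and is no mitoribosome protein. By the structural names a bacterial counterpart exists for 46 of the proteins, and 31 are classed as particular to mitochondria. Mrps18a and Mrps18b are among these 31, although both are relatives of bacterial S18.

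Per kilobase of the canonical transcript, the mean level over the 12 libraries was highest for Mrps21 (19.5 CPM per kb), which encodes bS21m of the small subunit. Mrps34 (12.1 CPM per kb), Mrpl53 (11.6) and Mrpl33 (9.56) followed. This order is that of the mean over all groups. In wild-type females Mrpl53 (17.1 CPM per kb) was above Mrps34 (12.5), and in wild-type males Mrpl53 (9.30) was below Mrps34 (13.1) and Mrpl33 (9.47). The lowest levels were those of Mrpl55 (0.697 CPM per kb), Mrps18c (0.727), Mrps25 (0.935) and Mrpl35 (1.01). These 4 have canonical transcripts of 3718 to 6102 bases, against a median of 1812 bases for all 78, and the length used sets part of this order. It also differed between groups. In knockout females Mrps25 (1.22 CPM per kb) was above Mrps31 (0.984), and in wild-type males Mrps18c (0.822) was below Mrpl55 (0.835).

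In females, the mitochondrial ribosomal protein genes were lower in the knockout. Of 78 members, 43 were called lower and 2 higher (edgeR quasi-likelihood test, Benjamini-Hochberg adjusted p under 0.05), and 33 were not called. Over all 17893 genes tested, 36.9% were called, 19.3% lower and 17.6% higher. The median log2 fold change of the members was -0.43, against 0.03 over all genes tested and -0.08 over tested protein-coding genes, and 71 of 78 values were negative. In 52 members every knockout female was below every wild-type female, and in 2 every knockout female was above, while such separation was seen in 24.1% and 25.2% of all genes tested. The summed level of the 78 members was 567, 620 and 669 CPM in the wild-type females and 458, 461 and 458 CPM in the knockout females. The knockout libraries were close together and below every wild-type library.

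**Figure D1:**
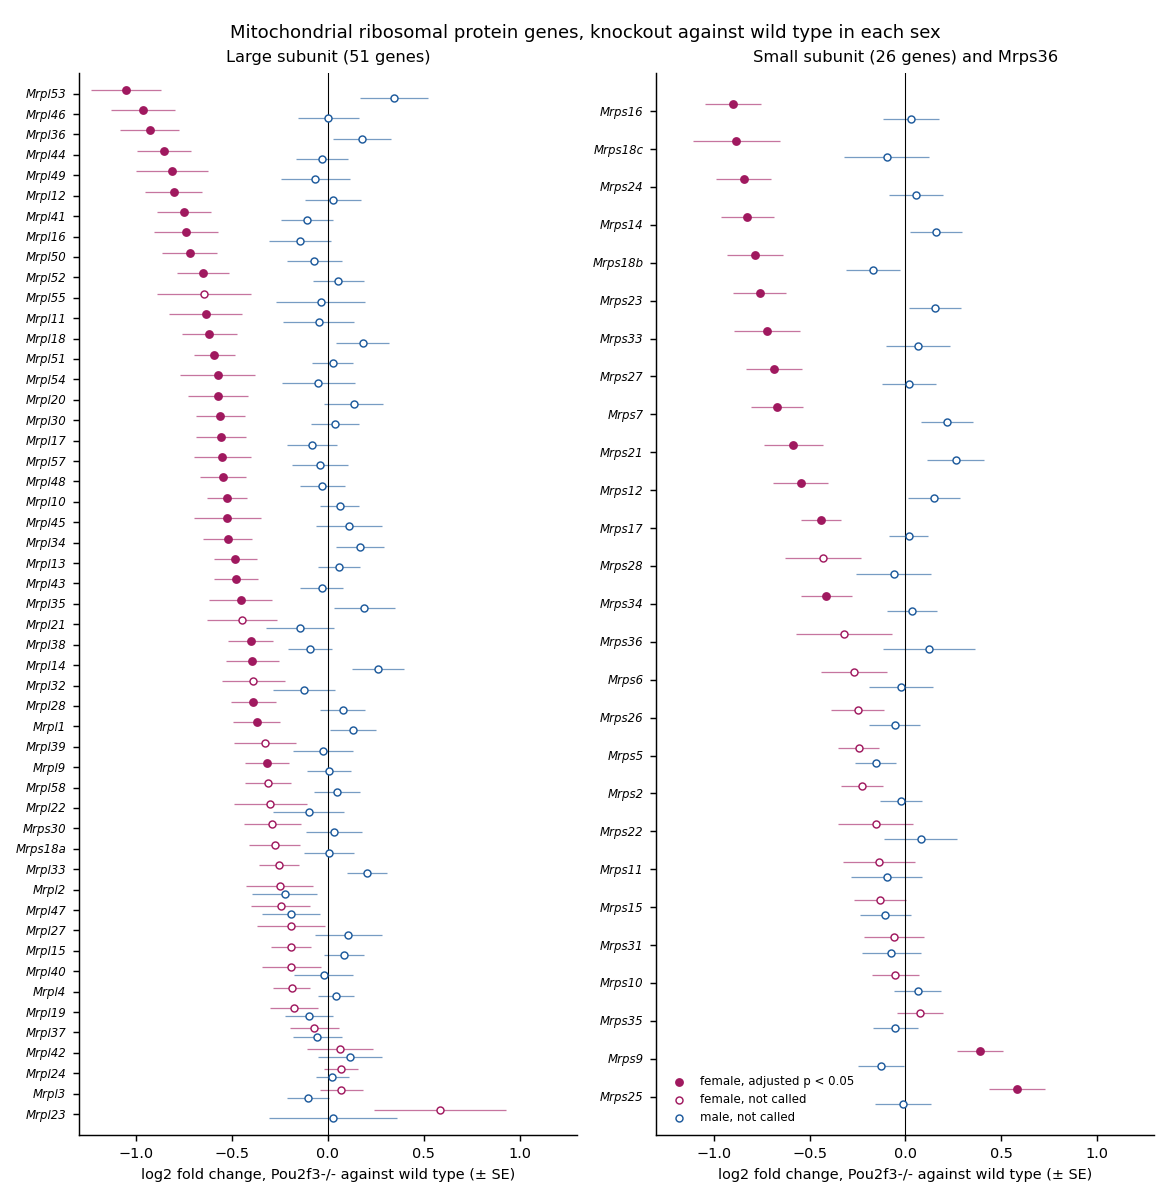
Log2 fold change (± SE) of each of the 78 members, knockout against wild type, in females (magenta) and males (blue), for the large subunit and for the small subunit with Mrps36. Filled points have an adjusted p under 0.05: 45 female values are filled, 43 of them below 0, and 0 male values are filled.

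Genes of both subunits fell. In the large subunit 30 of 51 members were called lower and 0 higher (median -0.46). In the small subunit 13 of 26 were called lower and 2 higher (median -0.42). Among proteins with a bacterial counterpart 24 of 46 were called lower and 1 higher (median -0.41), and among those classed as particular to mitochondria 19 of 31 were called lower and 1 higher (median -0.53). Of the 43 calls, 34 held under all 10 other ways of processing and with each female library left out in turn.

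Mrpl53 had the lowest value of all members. It encodes mL53, a large-subunit protein particular to mitochondria, and lies at chr6:83085887-83088572 (GRCm39). In wild-type females Mrpl53 was at 11.9, 10.1 and 13.7 CPM and in knockout females at 4.81, 6.65 and 5.68 CPM, while wild-type males had 5.61, 8.37 and 5.41 CPM and knockout males 7.57, 8.11 and 8.92 CPM. Every knockout female was below the lowest wild-type female, and the log2 fold change was -1.05 ± 0.18 (SE, adjusted p = 0.000994). Mrpl36, which encodes the small zinc-binding protein bL36m, lies at chr13:73476605-73480647. The level of Mrpl36 was 9.0, 10.5 and 12.7 CPM in wild-type females, 5.43, 6.11 and 5.29 CPM in knockout females, 6.83, 8.72 and 6.02 CPM in wild-type males and 7.97, 8.41 and 7.99 CPM in knockout males. The female groups did not overlap, and the log2 fold change was -0.93 ± 0.15 (SE, adjusted p = 0.000795). Mrpl44, at chr1:79753735-79759168, encodes mL44, a protein with a ribonuclease III-like fold. Mrpl44 read 7.43, 8.28 and 8.68 CPM in the wild-type females and 3.91, 5.03 and 4.5 CPM in the knockout females, and 6.37, 8.42 and 6.82 and then 7.68, 6.45 and 7.02 CPM in the wild-type and knockout males. The log2 fold change was -0.86 ± 0.14 (SE, adjusted p = 0.000771) in females, again without overlap.

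In the small subunit, Mrps16, Mrps24 and Mrps14 encode the conserved proteins bS16m, uS3m and uS14m. Wild-type and knockout females had 8.71, 10.0 and 12.1 and then 4.77, 6.38 and 5.36 CPM of Mrps16, and wild-type and knockout males 7.05, 8.96 and 7.52 and then 7.9, 7.91 and 8.18 CPM. Its female log2 fold change was -0.90 ± 0.15 (SE, adjusted p = 0.000776). For Mrps24 the wild-type values were 8.81, 9.82 and 10.9 CPM in females and 6.57, 9.83 and 7.82 CPM in males, and the knockout values 5.29, 5.92 and 5.19 CPM in females and 8.87, 7.85 and 8.46 CPM in males. The female log2 fold change of Mrps24 was -0.84 ± 0.15 (SE, adjusted p = 0.000991). Mrps14 stood at 11.9, 13 and 15 CPM in females and 8.23, 11 and 8.52 CPM in males of the wild type, and at 6.61, 8.39 and 7.46 CPM in females and 10.8, 10.3 and 9.92 CPM in males of the knockout. The female log2 fold change of Mrps14 was -0.82 ± 0.14 (SE, adjusted p = 0.000814). In all 3 genes the knockout females were the lowest 3 of the 6 female libraries. Mrps23 (mS23, particular to mitochondria) and Mrps7 (uS7m, which binds the small-subunit rRNA) behaved alike. Females had 9.7, 9.91 and 11.4 CPM of Mrps23 in the wild type and 5.85, 6.61 and 5.85 CPM in the knockout, and males had 8.71, 12.7 and 10.6 and then 13.1, 11.4 and 11.1 CPM. Among females the Mrps7 level was 8.65, 9.6 and 9.7 CPM in the wild type and 6.23, 5.92 and 5.4 CPM in the knockout, and among males 7.43, 10.5 and 7.35 CPM and 9.76, 9.6 and 10.0 CPM. Their female log2 fold changes were -0.76 ± 0.14 (SE, adjusted p = 0.0013) and -0.67 ± 0.14 (SE, adjusted p = 0.00263), and neither gene's female groups overlapped.

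**Figure D2:**
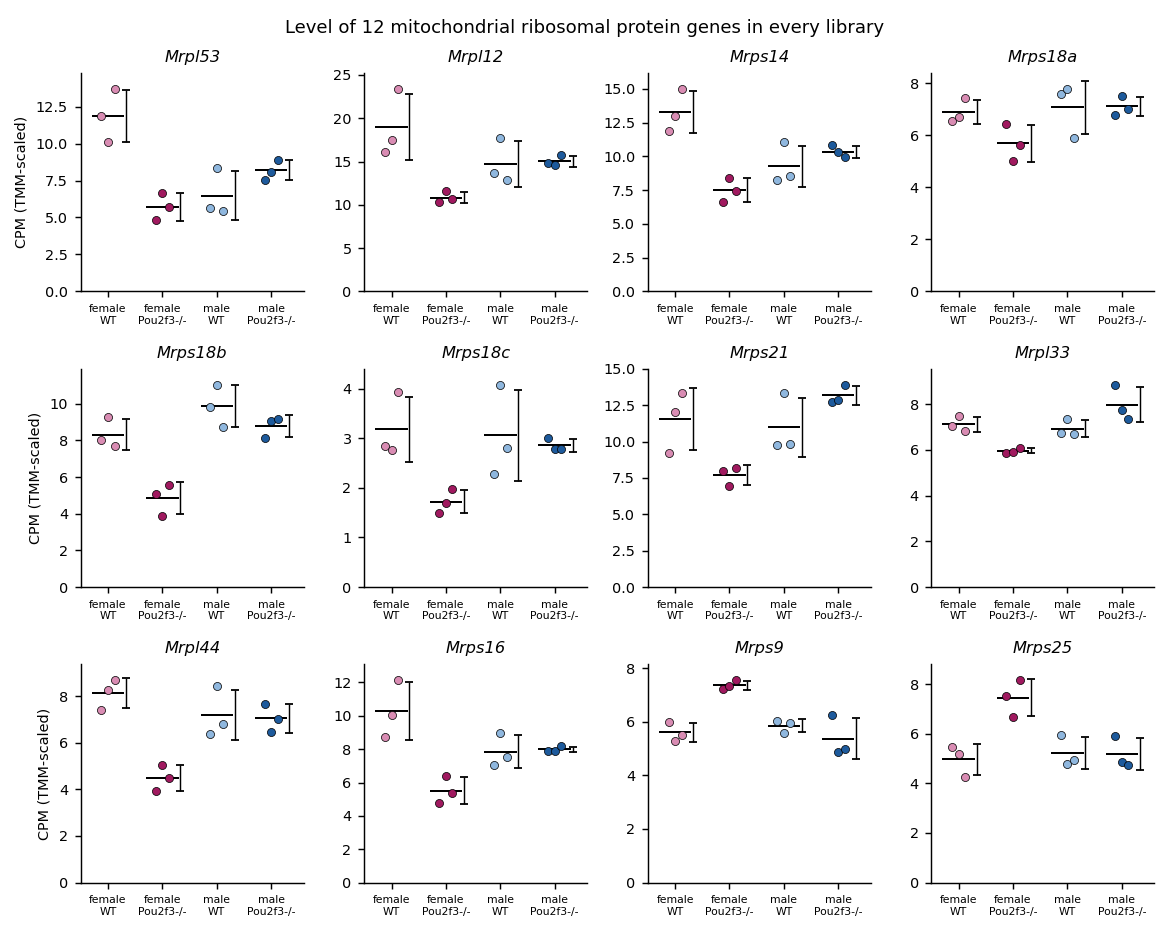
Level in CPM of 12 members in every library, by group, with each point 1 mouse, the horizontal line the group mean and the bar its SD (n = 3). The knockout females have the lowest mean of the 4 groups in 10 panels (in Mrps18a and Mrpl33 without a call) and the highest in Mrps9 and Mrps25.

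Mrpl12 encodes bL12m, the stalk protein that receives the translation factors. In wild-type females Mrpl12 was at 16.1, 17.5 and 23.3 CPM and in knockout females at 10.3, 11.6 and 10.7 CPM, while wild-type males had 13.6, 17.8 and 12.8 CPM and knockout males 14.8, 14.6 and 15.7 CPM. The female log2 fold change was -0.80 ± 0.15 (SE, adjusted p = 0.00141), and no knockout female reached a wild-type one. Mrps12 encodes uS12m, a protein of the decoding centre. The level of Mrps12 was 5.46, 6.1 and 7.4 CPM in wild-type females, 4.89, 4.21 and 3.86 CPM in knockout females, 6.29, 7.31 and 6.5 CPM in wild-type males and 6.95, 7.15 and 8.2 CPM in knockout males. Its female log2 fold change was -0.55 ± 0.14 (SE, adjusted p = 0.00982), also without overlap. Mrps21, the most abundant member per length, fell too. Mrps21 read 9.24, 12 and 13.4 CPM in the wild-type females and 7.99, 6.93 and 8.17 CPM in the knockout females, and 9.79, 13.3 and 9.83 and then 12.7, 12.9 and 13.9 CPM in the wild-type and knockout males. Its female log2 fold change was -0.58 ± 0.15 (SE, adjusted p = 0.0101), with no overlap between the female groups. Mrps34 (mS34), next by the mean level per length, had a log2 fold change of -0.41 ± 0.13 (SE, adjusted p = 0.0278) there. Wild-type and knockout females had 10.6, 11.8 and 12.7 and then 10.3, 7.69 and 8.36 CPM of Mrps34, and wild-type and knockout males 11.2, 14 and 11.6 and then 12.7, 11.5 and 13.6 CPM.

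The 3 relatives of bacterial S18 sit at different places in the particle, Mrps18c as bS18m and Mrps18b as mS40 in the small subunit and Mrps18a as mL66 in the large subunit. For Mrps18c the wild-type values were 2.84, 2.76 and 3.94 CPM in females and 2.29, 4.08 and 2.81 CPM in males, and the knockout values 1.5, 1.69 and 1.97 CPM in females and 3.0, 2.79 and 2.78 CPM in males. Mrps18b stood at 7.99, 9.26 and 7.69 CPM in females and 9.84, 11 and 8.71 CPM in males of the wild type, and at 5.05, 3.88 and 5.57 CPM in females and 8.11, 9.06 and 9.17 CPM in males of the knockout. Females had 6.55, 6.68 and 7.43 CPM of Mrps18a in the wild type and 6.41, 5.02 and 5.62 CPM in the knockout, and males had 7.57, 7.76 and 5.9 and then 6.79, 7.49 and 7.02 CPM. Mrps18c and Mrps18b were called lower in knockout females, with log2 fold changes of -0.88 ± 0.23 (SE, adjusted p = 0.00952) and -0.79 ± 0.15 (SE, adjusted p = 0.00144). Mrps18a was not called (-0.28 ± 0.13 SE, adjusted p = 0.122), although its female groups did not overlap. The differences between the paralogs were not tested.

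Mrps25 and Mrps9 were the 2 members that rose in knockout females. Mrps25 encodes mS25, particular to mitochondria, at chr6:92125876-92161043, and Mrps9 encodes uS9m, whose tail reaches the P site, at chr1:42890348-42945274. Among females the Mrps25 level was 5.46, 5.18 and 4.25 CPM in the wild type and 7.53, 6.66 and 8.15 CPM in the knockout, and among males 5.96, 4.77 and 4.95 CPM and 5.92, 4.86 and 4.76 CPM. In wild-type females Mrps9 was at 6.01, 5.29 and 5.53 CPM and in knockout females at 7.21, 7.33 and 7.54 CPM, while wild-type males had 6.02, 5.57 and 5.96 CPM and knockout males 6.24, 4.86 and 4.98 CPM. Every knockout female was above every wild-type female in both genes. The female log2 fold changes were 0.58 ± 0.15 (SE, adjusted p = 0.00813) for Mrps25 and 0.39 ± 0.12 (SE, adjusted p = 0.0216) for Mrps9. With no filter on low counts, in the limma test on the authors' normalized table, and with any of 5 of the 6 female libraries left out, 1 member was called higher.

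Mrpl23 encodes uL23m at the exit of the peptide tunnel and had the highest female value, 0.59 ± 0.34 (SE, adjusted p = 0.201), which was not called. The level of Mrpl23 was 1.09, 0.92 and 0.469 CPM in wild-type females, 0.979, 1.29 and 1.48 CPM in knockout females, 1.29, 0.909 and 0.742 CPM in wild-type males and 0.823, 1.26 and 0.911 CPM in knockout males. It had the fewest reads of all members, and its female groups overlapped. Mrpl3 (uL3m), Mrpl24 (uL24m), Mrpl42 (mL42), Mrps10 (uS10m), Mrps31 (mS31) and Mrps35 (mS35) had female values near 0, from -0.06 in Mrps31 to 0.08 in Mrps35, and that of Mrpl37 was -0.07. Mrpl24 read 14.9, 15.7 and 15.2 CPM in the wild-type females and 17.2, 15.5 and 15.3 CPM in the knockout females, and 16.2, 17.3 and 16.7 and then 17.3, 15.6 and 18.1 CPM in the wild-type and knockout males. Wild-type and knockout females had 6.94, 8.46 and 8.11 and then 7.11, 7.45 and 8.1 CPM of Mrps10, and wild-type and knockout males 8.66, 7.57 and 6.56 and then 8.34, 7.93 and 7.58 CPM. The female groups of both genes overlapped. For Mrpl3 the wild-type values were 8.89, 9.47 and 7.27 CPM in females and 9.57, 10.0 and 10.8 CPM in males, and the knockout values 8.37, 9.23 and 9.3 CPM in females and 10.0, 9.03 and 9.25 CPM in males. Mrps31 stood at 2.63, 3.61 and 3.13 CPM in females and 3.48, 3.47 and 3.27 CPM in males of the wild type, and at 3.08, 2.8 and 3.11 CPM in females and 3.06, 2.95 and 3.69 CPM in males of the knockout. Females had 6.32, 7.38 and 5.84 CPM of Mrps35 in the wild type and 7.51, 6.54 and 6.56 CPM in the knockout, and males had 7.19, 6.69 and 6.29 and then 6.15, 6.87 and 6.42 CPM. These 3 genes also overlapped between the female groups. Among females the Mrpl42 level was 5.29, 4.4 and 6.96 CPM in the wild type and 5.23, 5.35 and 6.77 CPM in the knockout, and among males 6.7, 7.87 and 6.02 CPM and 7.13, 7.85 and 7.3 CPM. For Mrpl42 the value was 0.06 in the counts and -0.52 in the authors' normalized table, and the cause was not tested.

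Some members fell short of the threshold with female log2 fold changes below 0. Mrpl58 encodes mL62, a peptidyl-tRNA hydrolase that rescues stalled mitoribosomes, and its value was -0.31 ± 0.12 (SE, adjusted p = 0.0586). In wild-type females Mrpl58 was at 9.18, 9.64 and 11.7 CPM and in knockout females at 7.91, 8.19 and 8.47 CPM, while wild-type males had 8.42, 9.54 and 9.84 CPM and knockout males 10.4, 8.41 and 9.92 CPM. Mrpl33 (bL33m) had a value of -0.26 ± 0.11 (SE, adjusted p = 0.0748). The level of Mrpl33 was 7.04, 7.47 and 6.83 CPM in wild-type females, 5.87, 5.92 and 6.09 CPM in knockout females, 6.75, 7.36 and 6.67 CPM in wild-type males and 8.84, 7.73 and 7.36 CPM in knockout males. In both genes the knockout females were below the wild-type females. Mrpl55 (bL31m), with the lowest mean level per length, had a value of -0.65 ± 0.24 (SE, adjusted p = 0.0529), with overlapping groups. Mrpl55 read 1.79, 3.19 and 3.02 CPM in the wild-type females and 1.48, 1.64 and 1.97 CPM in the knockout females, and 2.73, 3.99 and 2.87 and then 3.36, 3.36 and 2.62 CPM in the wild-type and knockout males. Mrpl35 (bL35m) was called, with a value of -0.46 ± 0.16 (SE, adjusted p = 0.0455), although 1 knockout female was above the lowest wild-type female. Wild-type and knockout females had 4.08, 4.19 and 3.44 and then 2.3, 2.75 and 3.52 CPM of Mrpl35, and wild-type and knockout males 3.72, 4.16 and 3.67 and then 4.27, 4.68 and 4.21 CPM. Mrps36, outside the mitoribosome, was not called (-0.32 ± 0.25 SE, adjusted p = 0.347). For Mrps36 the wild-type values were 2.18, 2.56 and 3.86 CPM in females and 2.85, 4.53 and 3.67 CPM in males, and the knockout values 1.84, 2.92 and 2.08 CPM in females and 3.74, 4.57 and 3.71 CPM in males.

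Other values moved with these groups. The summed level of 5 adipocyte markers was 3.25, 5.76 and 41.5 CPM in wild-type females and 2.98, 4.88 and 2.4 CPM in knockout females, and that of the 2 brown adipocyte markers (Ucp1 and Cidea) was 0.0778, 0.0673 and 9.41 and 0.0399, 0.0503 and 0.0429 CPM, with replicate 3 of the wild-type females far above the rest. The 5 macrophage markers summed to 123, 49.9 and 66.4 CPM in wild-type females, highest in replicate 1, and to 42.5, 65.7 and 53.2 CPM in knockout females. All 3 myoepithelial markers, 1 of 6 acinar, 1 of 4 duct, 2 of 5 adipocyte, both brown adipocyte and 2 of 5 macrophage markers were called lower in knockout females, as was 1 of the 2 muscle markers tested, and 0 of 3 blood markers were called. Of the 5 granular convoluted tubule markers 4 had values above 0 and 2 were called higher, with a median of 0.41. The 6 acinar markers summed to 25797, 32507 and 29651 CPM in the knockout. Of the 4 lymphocyte markers none had more than 14 counts, and of the 6 muscle markers 2 were tested, with a sum of 0.999 to 1.79 CPM in the female libraries. Without wild-type replicate 3, 36 members were called lower (median -0.39), and without wild-type replicate 1, 53 were (median -0.56). The part of other cell types in the result was not tested.

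In males, 0 of 78 members were called in either direction, and 0 in each other tool and setting tried, DESeq2 and limma included. At an unadjusted p under 0.05 there were 0 in this fit and 7 without wild-type male replicate 2. There were 3 in the limma test on the authors' normalized table. Over all genes tested 0.235% were called. Without knockout male replicate 1, 1.68% of all genes tested were called lower and 1.74% higher, and in DESeq2 0.569% and 0.699%. The median log2 fold change of the members was 0.01, and the values ran from -0.23 in Mrpl2 to 0.34 in Mrpl53. In 4 members every knockout male was above every wild-type male and in 0 every one was below, against 6.51% and 7.95% of all genes tested. The summed level was 549, 653 and 549 CPM in wild-type males and 606, 578 and 600 CPM in knockout males, so that replicate 2 of the wild type was the highest and the groups overlapped.

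The members with the smallest p in males were Mrpl14 (uL14m, at the subunit interface), Mrpl33, Mrpl53 and Mrps21. Mrpl14 stood at 5.43, 6.68 and 7.61 CPM in females and 6.85, 8.2 and 7.83 CPM in males of the wild type, and at 5.31, 5.17 and 4.48 CPM in females and 9.95, 9.06 and 8.42 CPM in males of the knockout. Its male log2 fold change was 0.26 ± 0.14 (SE, adjusted p = 0.497). The values of Mrpl33, Mrpl53 and Mrps21 were 0.20 ± 0.10 (SE, adjusted p = 0.492), 0.34 ± 0.18 (SE, adjusted p = 0.498) and 0.26 ± 0.15 (SE, adjusted p = 0.542). In Mrpl14 and Mrpl33 the male groups did not overlap and the knockout was higher, opposite in sign to the female values, but none of the 4 passed the threshold.

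The difference between the sexes was tested as the interaction, the female minus the male log2 fold change. It was called below 0 for 30 members and above 0 for 2, with a median of -0.46, while 12.4% of all genes tested were called below 0 and 13.4% above. The median over all genes tested was 0.03. Mrpl53 had the value furthest below 0, -1.40 ± 0.25 (SE, adjusted p = 0.00462). It was followed by Mrpl36 (-1.11 ± 0.22 SE, adjusted p = 0.00553) and Mrps14 (-0.99 ± 0.19 SE, adjusted p = 0.00553). The 2 values above 0 were those of Mrps25 (0.59 ± 0.21 SE, adjusted p = 0.0496) and Mrps9 (0.52 ± 0.17 SE, adjusted p = 0.0396), and both calls were lost by RLE scaling, by DESeq2 and without any one of 10 of the 12 libraries. The count below 0 rested on the libraries used. It was 15 without wild-type male replicate 1, 16 without wild-type male replicate 3, 19 without knockout male replicate 2 or 3, and 46 without wild-type female replicate 1.

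Markers of some other cell types moved with this interaction. All 5 adipocyte markers (median -8.50) and both brown adipocyte markers were called below 0, as were 2 of 3 blood markers and 2 of 5 macrophage markers, and 0 markers of these lists were called above 0. Of the 6 acinar, 5 granular convoluted tubule, 4 duct, 3 myoepithelial and 2 tested muscle markers 0 were called, and Dclk1 was not called. The adipocyte markers summed to 1.42, 1.51 and 1.53 CPM in wild-type males and 2.66, 32 and 15.5 CPM in knockout males, and the brown adipocyte markers to 0.146, 0.0852 and 0.171 CPM and 0.774, 5.3 and 0.0942 CPM. The blood markers summed to 1.44, 1.73 and 1.45 and 2.58, 9.0 and 6.39 CPM and the macrophage markers to 48.6, 59.2 and 58.9 and 62.8, 108 and 101 CPM in the same groups. The sums of the adipocyte, blood and macrophage markers were higher in every knockout male than in every wild-type male, and highest in knockout replicate 2. Of the adipocyte markers 4 of 5 were also called lower in wild-type males than in wild-type females, and 4 of 5 were called higher in knockout males than in knockout females. Without wild-type female replicate 3, where adipocyte markers were highest, 27 members had an interaction called below 0. That count was 19 without knockout male replicate 2, where the adipocyte, blood and macrophage sums were highest. It was also 19 without knockout male replicate 3, and 25 without knockout male replicate 1. Leaving out wild-type male replicate 1, 2 or 3 gave 15, 37 and 16. The part of these cell types in the result was not tested.

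**Figure D3:**
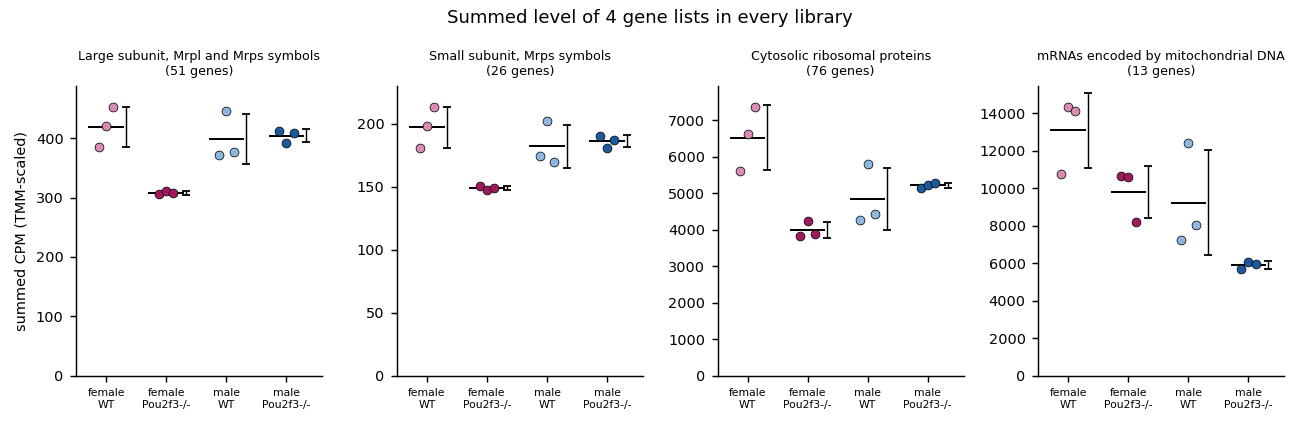
Summed level in CPM of 4 gene lists in every library, with each point 1 mouse, the line the group mean and the bar its SD (n = 3). Knockout females are the lowest group for both mitoribosome subunits and for cytosolic ribosomal proteins, while knockout males are the lowest group for the mRNAs encoded by mitochondrial DNA.

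Wild-type males and females differed in few members. Of 78, 5 were called lower in males and 0 higher, with 16 at an unadjusted p under 0.05, while 16.0% of all genes tested were called lower in males and 20.5% higher. The median log2 ratio of male to female wild type was -0.03. Mrpl53 (-0.88 ± 0.18 SE, adjusted p = 0.00209), Mrpl36 (-0.57 ± 0.15 SE, adjusted p = 0.00983) and Mrps14 (-0.52 ± 0.14 SE, adjusted p = 0.00919) had the lowest values and did not overlap between the sexes. The female genotype comparison and the interaction use the same wild-type female libraries and are not independent of this one. Mrps5, which encodes uS5m of the decoding side, had a value of -0.35 ± 0.11 (SE, adjusted p = 0.022). Females had 12.3, 14.3 and 12.6 CPM of Mrps5 in the wild type and 11, 11 and 11 CPM in the knockout, and males had 11.1, 9.93 and 9.68 and then 10.5, 8.75 and 8.4 CPM. Its 3 wild-type males were below the 3 wild-type females. Mrpl38 encodes mL38 of the central protuberance, and its value of -0.31 ± 0.11 (SE, adjusted p = 0.0497) stood at the threshold with overlapping groups. Among females the Mrpl38 level was 12.7, 15.3 and 15.4 CPM in the wild type and 11.6, 9.7 and 11.6 CPM in the knockout, and among males 11.7, 12.8 and 10.5 CPM and 11.4, 10.4 and 11.1 CPM. Of the cell type markers, 4 of 6 acinar, 4 of 5 adipocyte, 1 of 2 brown adipocyte and 3 of 5 macrophage markers were called lower in wild-type males, and 4 of 5 granular convoluted tubule and 3 of 3 myoepithelial markers higher. Dclk1 and 1 granular convoluted tubule marker were called lower there, 1 duct and 1 muscle marker were called each way, and 0 of 3 blood markers were called. Their part in these values was not tested. The count of 5 was 16 with upper-quartile scaling, 11 with DESeq2, 14 without wild-type male replicate 2, 13 without wild-type female replicate 1 and 2 without wild-type male replicate 3.

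Of the members with a higher mean in wild-type males than in wild-type females, none was called, and Mrpl54, Mrpl42, Mrpl2, Mrpl37, Mrpl3 and Mrps18b had the smallest adjusted p. In 4 members every wild-type male was above every wild-type female and in 7 every one was below, against 26.7% and 20.9% of all genes tested. In wild-type females Mrpl54 was at 5.31, 7.49 and 9.59 CPM and in knockout females at 4.55, 5.29 and 5.12 CPM, while wild-type males had 9.12, 12.6 and 9.0 CPM and knockout males 10.9, 9.63 and 9.09 CPM. The log2 ratio of Mrpl54 (mL54) was 0.46 ± 0.19 (SE, adjusted p = 0.0783). The level of Mrpl2 was 3.71, 4.31 and 4.54 CPM in wild-type females, 4.25, 2.85 and 3.43 CPM in knockout females, 4.73, 5.35 and 5.43 CPM in wild-type males and 5.32, 3.89 and 4.05 CPM in knockout males. Mrpl2, whose product uL2m lies close to the peptidyl transferase centre, had a ratio of 0.31 ± 0.17 (SE, adjusted p = 0.18), and its groups did not overlap. Mrpl37 read 9.55, 11.4 and 10.7 CPM in the wild-type females and 11.8, 8.49 and 9.88 CPM in the knockout females, and 13.4, 12.7 and 12.3 and then 13.4, 11 and 12.5 CPM in the wild-type and knockout males. Mrpl37 (mL37) had a ratio of 0.28 ± 0.13 (SE, adjusted p = 0.106).

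Between the knockout sexes, 38 members were higher in males and 2 lower, Mrps9 and Mrps25, with a median log2 ratio of 0.43. Over all genes tested 23.2% were called higher in males and 20.3% lower. In 50 members every knockout male was above every knockout female and in 3 every one was below, while 27.3% and 27.5% of all genes tested were separated in these ways. Mrpl46 had the highest ratio (1.03 ± 0.17 SE, adjusted p = 0.000334), and Mrpl54 (0.99 ± 0.19 SE, adjusted p = 0.00135) and Mrps23 (0.96 ± 0.14 SE, adjusted p = 0.000133) came next. Markers of other cell types also differed between these groups. Called higher in knockout males were 3 of 3 blood, 3 of 3 myoepithelial, 3 of 5 macrophage, 4 of 5 adipocyte, 1 of 2 brown adipocyte, 4 of 5 granular convoluted tubule and 3 of 4 duct markers, and called lower were 4 of 6 acinar, 1 granular convoluted tubule and 1 duct marker and Dclk1, and of the 2 muscle markers tested 1 was called each way. Their part in the result was not tested. This comparison shares its female libraries with the female genotype comparison and is not independent of it.

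Other genes of mitochondrial translation were called in both directions in females. Of the 5 mitoribosome proteins whose genes carry another symbol, Chchd1 (mS37, -0.78 ± 0.20 SE, adjusted p = 0.00861) and Aurkaip1 (mS38, -0.63 ± 0.11 SE, adjusted p = 0.0012) fell. Gadd45gip1 (mL64) had a value of -0.48 ± 0.18 (SE, adjusted p = 0.0567), Ptcd3 (mS39) of 0.30 ± 0.12 (SE, adjusted p = 0.0741), and Dap3 (mS29) of 0.16 ± 0.12 (SE, adjusted p = 0.309). Of 22 genes for assembly of the particle and modification of its rRNA, 5 were called lower and 2 higher, with a median of -0.18. These counts are 22.7% lower and 9.09% higher, against 19.3% and 17.6% of all genes tested. They are given as a description of the genes and not as a result about the list. Among them the methyltransferase-like gene Mettl17 rose (1.09 ± 0.21 SE, adjusted p = 0.00173), while the GTPase gene Mtg1 (-0.69 ± 0.19 SE, adjusted p = 0.0137), Mpv17l2 (-0.47 ± 0.13 SE, adjusted p = 0.0148) and the RNA helicase gene Ddx28 (-0.65 ± 0.19 SE, adjusted p = 0.0169) fell.

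Of 16 genes for mitochondrial translation factors and mRNA handling, 6 were called lower (37.5%) and 1 higher (6.25%), against 19.3% and 17.6% of all genes tested, with a median of -0.06. Tufm, the elongation factor that brings the aminoacyl-tRNA, fell (-0.58 ± 0.11 SE, adjusted p = 0.00205), as did the translocase gene Gfm1 (-0.45 ± 0.11 SE, adjusted p = 0.00798) and the recycling factor gene Mrrf (-0.47 ± 0.13 SE, adjusted p = 0.015). Mtfmt, which formylates the initiator methionyl-tRNA, rose (0.91 ± 0.19 SE, adjusted p = 0.00269). Of 12 regulators of mitochondrial gene expression, 3 were called lower and 2 higher, near the shares over all genes tested. Tfb2m (-0.79 ± 0.13 SE, adjusted p = 0.000775) and Tfam (-0.58 ± 0.15 SE, adjusted p = 0.00993), needed to start transcription of mitochondrial DNA, fell, while the mitochondrial RNA polymerase gene Polrmt (0.43 ± 0.11 SE, adjusted p = 0.00662) and the coactivator gene Ppargc1b (1.15 ± 0.18 SE, adjusted p = 0.000625) rose. In males 0 genes of these 4 lists were called by edgeR, with 2 at an unadjusted p under 0.05.

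The 13 mRNAs encoded by mitochondrial DNA, which the mitoribosome translates, were measured in the same libraries. In females 0 of 13 were called, with 1 at an unadjusted p under 0.05, and their median was -0.34, all 13 below 0. In males 0 of 13 were called by edgeR, with 10 at an unadjusted p under 0.05, and all 13 were below 0 with a median of -0.66, while the 78 nuclear members had a median of 0.01. Their summed level was 10764, 14316 and 14138 CPM in wild-type females, 10649, 10573 and 8204 CPM in knockout females, 7204, 12412 and 8009 CPM in wild-type males and 5686, 6071 and 5967 CPM in knockout males. The knockout males were below every other library. Between the sexes, 6 of 13 were called lower in wild-type males than in wild-type females (median -0.58) and 10 of 13 lower in knockout males than in knockout females (median -0.85), with 0 called higher by edgeR in either, whereas 38 members were called higher in knockout males. Over all genes tested 16.0% and 20.3% were called lower in males in these comparisons. The difference between the lists was not tested. Of these genes mt-Co1, which encodes subunit 1 of cytochrome c oxidase, had a log2 fold change of -0.48 ± 0.21 (SE, adjusted p = 0.094) in females and -0.59 ± 0.21 (SE, adjusted p = 0.285) in males.

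Cytosolic ribosomal protein genes gave a further point of reference. Of 76 such genes, 68 (89.5%) were called lower in knockout females, against 19.3% of all genes tested, and 0 higher, with a median of -0.66, and in males 0 were called by edgeR, with 2 at an unadjusted p under 0.05 and a median of 0.10. Between wild-type males and females 42 (55.3%) were called lower in males and 1 (1.32%) higher, against 16.0% and 20.5% of all genes tested, with a median of -0.41, where the mitochondrial members had 5 lower and a median of -0.03. The difference between the lists was not tested. Their summed level was 5600, 6609 and 7356 CPM in wild-type females and 3836, 4229 and 3883 CPM in knockout females.

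The members were shorter genes than most. Their canonical transcripts had a median of 1812 bases and 5 exons, against 3474 bases and 9 exons for the 14181 tested protein-coding genes. Among genes under 1500 bases the median female log2 fold change was -0.45 for 31 members and -0.33 for 1664 protein-coding genes, and among longer genes it was -0.43 for 47 members and -0.05 for 12517 protein-coding genes. Of 36 members with fewer than 5 exons, 26 were called lower and 1 higher (median -0.57), and of 42 members with 5 or more, 17 were called lower and 1 higher (median -0.30). The same split gave medians of -0.21 for 3164 protein-coding genes with fewer exons and -0.03 for 11017 with more, while 24.6% and 23.7% were called lower and 6.98% and 16.9% higher. By length, 33.4% of the shorter protein-coding genes were called lower and 6.79% higher, against 22.6% and 15.7% of the longer ones, and of the members 18 of 31 shorter and 25 of 47 longer were called lower. Across the 78 members, which share all libraries and are not independent replicates, the rank correlation of the female log2 fold change was 0.48 with exon number, 0.44 with total intron length and 0.10 with transcript length. Over all 14181 protein-coding genes these correlations were 0.24, 0.16 and 0.19.

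**Figure D4:**
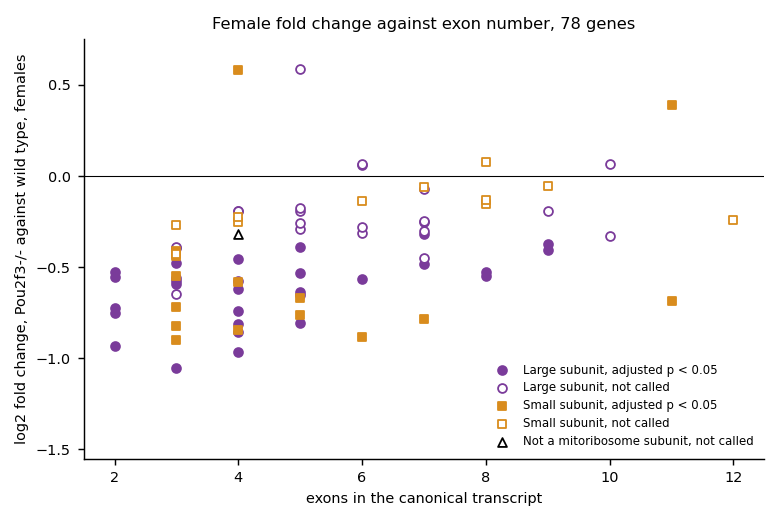
Female log2 fold change (knockout against wild type) of the 78 members against the number of exons in the canonical transcript. Filled symbols have an adjusted p under 0.05; members with fewer than 5 exons had a median of -0.57 and those with 5 or more a median of -0.30, and Mrps25 (4 exons) and Mrps9 (11 exons) are the filled symbols above 0.

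Promoters were examined because many members moved together, and because the factors NRF1 and GABPA (of the ETS family) are known activators of nuclear genes for mitochondrial proteins. In the window from 250 bases before to 50 bases after the start of the canonical transcript, read on both strands, the NRF1 motif (GCGCA, then any base, then GCGC) was found in 12 of 78 members (15.4%), against 8.29% of 14181 tested protein-coding genes. The ETS motif CCGGAAG was found in 24 of 78 members (30.8%) against 14.2%, and the YY1 motif AAGATGGCG in 4 members (5.13%) against 1.95%. The SP motif GGGCGGG was found in 35.9% of members against 41.1%, the TATA box TATAAA in 10.3% against 8.72%, and the ERR motif TCAAGGTCA in 0 members against 0.36%. Of the 43 members called lower in females, 9 held the NRF1 motif (20.9%) and 15 the ETS motif (34.9%), and of the 35 others 3 (8.57%) and 9 (25.7%) did. The YY1 motif went the other way, in 1 of the 43 (2.33%) and 3 of the 35 (8.57%), and the SP motif was in 37.2% and 34.3% and the TATA box in 11.6% and 8.57%. These differences were not tested. A match is a description of the letters and does not show that a factor binds.

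The sequences below are the 120 bases before the start of each gene's canonical transcript in GRCm39, 5′ to 3′ on the strand of the gene, with the NRF1 motif or its reverse complement in capitals. Other transcripts of Mrpl12 and Mrps22 start within these bases. Mrpl12 and Mrpl45 fell in knockout females, while Mrps6 was not called.
Mrpl12: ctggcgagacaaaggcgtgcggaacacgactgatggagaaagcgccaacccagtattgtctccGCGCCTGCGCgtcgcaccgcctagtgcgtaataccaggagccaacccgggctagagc
Mrpl45: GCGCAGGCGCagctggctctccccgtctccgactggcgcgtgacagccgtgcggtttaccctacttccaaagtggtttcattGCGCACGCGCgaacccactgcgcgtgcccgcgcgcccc
Mrps6: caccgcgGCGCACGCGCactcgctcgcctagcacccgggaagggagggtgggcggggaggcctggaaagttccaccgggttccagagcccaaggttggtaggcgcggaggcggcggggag
They lie at chr11:120375319-120375438 (plus strand), chr11:97206422-97206541 (plus strand) and chr16:91854845-91854964 (plus strand), and the capitals begin 57 bases before the start in Mrpl12, 120 and 38 in Mrpl45 and 113 in Mrps6. The female log2 fold changes were -0.80 ± 0.15 (SE, adjusted p = 0.00141) for Mrpl12, -0.53 ± 0.17 (SE, adjusted p = 0.0319) for Mrpl45 and -0.27 ± 0.17 (SE, adjusted p = 0.238) for Mrps6.

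The next set has the ETS motif, or its reverse complement, in capitals. Mrpl34 and Mrpl52 fell in knockout females, while Mrps22 was not called.
Mrpl34: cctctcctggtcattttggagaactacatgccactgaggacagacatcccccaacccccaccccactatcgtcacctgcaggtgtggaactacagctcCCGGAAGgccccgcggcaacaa
Mrpl52: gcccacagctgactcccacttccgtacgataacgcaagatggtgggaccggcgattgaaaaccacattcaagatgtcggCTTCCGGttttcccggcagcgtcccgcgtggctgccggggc
Mrps22: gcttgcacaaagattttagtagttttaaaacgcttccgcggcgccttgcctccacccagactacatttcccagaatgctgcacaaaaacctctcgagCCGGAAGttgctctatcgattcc
They lie at chr8:71917435-71917554 (plus strand), chr14:54664240-54664359 (plus strand) and chr9:98483721-98483840 (minus strand). The female log2 fold changes were -0.52 ± 0.13 (SE, adjusted p = 0.00702) for Mrpl34, -0.65 ± 0.14 (SE, adjusted p = 0.00302) for Mrpl52 and -0.16 ± 0.19 (SE, adjusted p = 0.561) for Mrps22, so the same letters stood before members that were called and before one that was not.

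The 2 members that rose are shown next, with neither motif in these bases. Lacking the motifs did not set them apart. Mrpl46, Mrps16, Mrps18b, Mrps23 and Mrpl41 fell and had neither motif in the whole window. Mrps9 had an NRF1 match that begins at base 41 of its transcript.
Mrps9: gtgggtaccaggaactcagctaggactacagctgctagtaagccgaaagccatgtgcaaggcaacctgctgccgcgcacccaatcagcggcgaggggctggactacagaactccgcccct
Mrps25: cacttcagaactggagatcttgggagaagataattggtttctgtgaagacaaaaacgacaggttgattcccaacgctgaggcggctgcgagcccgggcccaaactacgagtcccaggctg
They lie at chr1:42890228-42890347 (plus strand) and chr6:92161044-92161163 (minus strand).

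Many members share their start region with another gene. In 26 of 78 members (33.3%) a tested protein-coding gene on the opposite strand started within 1000 bases, counted between canonical transcripts, against 11.7% of tested protein-coding genes. In 13 of the 26 the start sites pointed away from each other, and in 13 the transcripts overlapped at their starts. Of these 26 members 18 were called lower in knockout females and 0 higher. Of the 26 neighbours 6 were called lower (23.1%), 5 higher (19.2%) and 15 neither, shares near the 19.3% and 17.6% of all genes tested, so the pairs are given as a description only. In 4 pairs the member fell and the neighbour rose. Mrps18c and Helq, a DNA helicase gene, had log2 fold changes of -0.88 (adjusted p = 0.00952) and 0.64 (adjusted p = 0.0091). Mrps18b and the phosphatase regulator gene Ppp1r10 had -0.79 (adjusted p = 0.00144) and 0.65 (adjusted p = 0.00121). Mrps7 and Gga3, for a clathrin adaptor, had -0.67 (adjusted p = 0.00263) and 0.92 (adjusted p = 0.00364), and Mrps34 and Eme2, for an endonuclease subunit, had -0.41 (adjusted p = 0.0278) and 1.03 (adjusted p = 0.000724). In Mrps27 and Ptcd2, Mrpl18 and Tcp1, and Mrpl49 and Fau both genes fell.

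**Figure D5:**
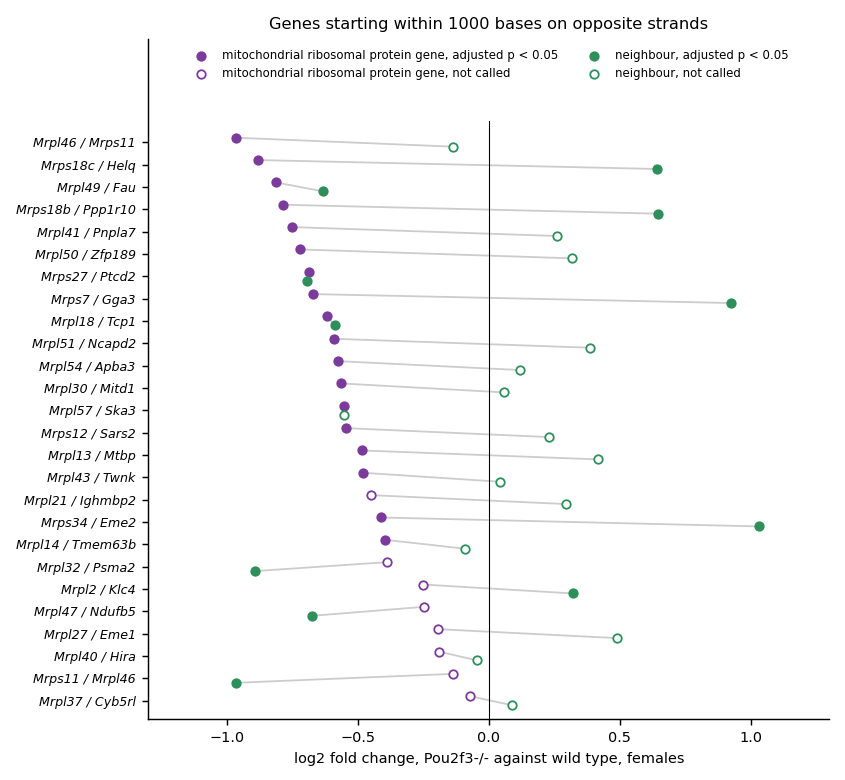
Female log2 fold change (knockout against wild type) of the 26 members with a gene starting within 1000 bases on the opposite strand (purple) and of that neighbour (green), joined by a line for each pair. Filled points have an adjusted p under 0.05; 18 members and 6 neighbours are filled below 0, and 5 neighbours are filled above 0. Mrpl46 and Mrps11 are each other's neighbours and appear in the list from both sides.

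Mrpl46 and Mrps11 are members of both subunits whose canonical transcripts start 30 bases apart on opposite strands of chromosome 7, and this pair was chosen after its values were seen. Another transcript of Mrpl46 starts further upstream, so that the genes overlap. The 29 bases between the canonical start sites, at chr7:78432838-78432866 on the plus strand, are as follows.
Mrpl46 to Mrps11: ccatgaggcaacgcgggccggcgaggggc
Wild-type and knockout females had 2.7, 2.8 and 2.66 and then 1.6, 1.28 and 1.31 CPM of Mrpl46, and wild-type and knockout males 2.75, 3.15 and 2.62 and then 2.81, 2.58 and 3.16 CPM. For Mrps11 the wild-type values were 2.12, 2.09 and 2.32 CPM in females and 2.23, 2.59 and 2.52 CPM in males, and the knockout values 1.62, 1.9 and 2.42 CPM in females and 2.52, 2.35 and 1.99 CPM in males. The knockout females were below the wild-type females for Mrpl46 (mL46), with a log2 fold change of -0.97 ± 0.17 (SE, adjusted p = 0.00106). For Mrps11 (uS11m) the female groups overlapped, and the value was -0.14 ± 0.19 (SE, adjusted p = 0.604).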

How the data were processed

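The genes described and the lists set beside them were chosen with earlier results of these data known. Per the labels and the study's methods, the authors made stranded libraries of total RNA after removal of rRNA, while the labels give the molecule as polyA RNA. The authors ran Salmon 1.10.1 against Gencode M35 (GRCm39) and deposited an estimated count for each gene (78.7% of values whole). The authors also deposited a table of normalized signal, in which each count is divided by a factor that varies with both gene and library. How the factors were made is not given in the sources used here.

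Estimated counts were rounded. edgeR 4.0.16 (R 4.3.3) was used with TMM, filterByExpr defaults (17893 genes kept) and a quasi-likelihood fit with 1 mean per group over 12 libraries. Benjamini-Hochberg adjustment ran over all genes in each contrast, and a call is an adjusted p under 0.05. The SE is the absolute log2 fold change over the square root of F. Exact tests of 3 mice against 3 cannot go below p = 0.1 and were not used. On simulated counts for the female comparison (17503 genes, 200 changed) the fit recovered 61% of 2-fold and 72% of 3-fold changes, with 5% of its calls false and 0 calls in males.

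Members named with all values were, in the female, wild-type sex and interaction contrasts, the 6 lower and 6 higher with the smallest adjusted p, the 4 with the smallest p in males, the 4 most and 4 least abundant per length, the 4 with the smallest female change, and Mrps18a, Mrps18b, Mrps18c, Mrps12, Mrps36, Mrpl12 and Mrpl58; others in the text were chosen after their values were seen. Of the assembly, translation factor and regulator lists, the 4 genes each with the smallest adjusted p in females are named. All 5 other subunits are named, and of the mRNAs encoded by mitochondrial DNA only mt-Co1. Gene classes, lengths, start sites and positions come from Gencode M39 (55563 identifiers matched) and sequences from GRCm39; lengths are those of the canonical transcript. Alternatives were RLE and upper-quartile scaling, leaving the 20 most abundant genes out of library sizes, a table of protein-coding genes only, all genes with no low-count filter, a filter of 10 or more counts per library, separate fits for the sexes, DESeq2 1.42.0, limma 3.58.1 on log2 of the authors' normalized signal plus 1, a replicate block, and each library left out. Plots were drawn with matplotlib 3.10.9 in Python 3.11.15.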

Additional observations from a re-analysis of the deposited data

Results flagged for a closer look

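The genotype effect differed between the sexes in 32 members by the interaction test of edgeR (Benjamini-Hochberg adjusted p under 0.05, 25.7% of all genes tested). Values are the female minus the male log2 fold change, and each is the difference of 2 contrasts of 3 mice against 3.

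In the large subunit the values furthest below 0 were those of Mrpl53 (-1.40), Mrpl36 (-1.11), Mrpl46 (-0.97), Mrpl12 (-0.83) and Mrpl44 (-0.82). They were followed by Mrpl18 (-0.80), Mrpl20 (-0.71), Mrpl52 (-0.71), Mrpl34 (-0.69), Mrpl14 (-0.66), Mrpl50 (-0.65) and Mrpl41 (-0.64), and then by Mrpl51 (-0.62), Mrpl30 (-0.60), Mrpl10 (-0.59), Mrpl13 (-0.54), Mrpl48 (-0.52), Mrpl1 (-0.50) and Mrpl33 (-0.46). In the small subunit they were those of Mrps14 (-0.99), Mrps16 (-0.93), Mrps23 (-0.91), Mrps24 (-0.90), Mrps7 (-0.89) and Mrps21 (-0.85), and then of Mrps33 (-0.79), Mrps27 (-0.70) and Mrps12 (-0.70) and of Mrps18b (-0.62) and Mrps17 (-0.46). Above 0 were Mrps9 (0.52) and Mrps25 (0.59). The count below 0 was 15 to 46 when 1 library was left out, with the libraries named beside the interaction result.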

How the results depend on the processing

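The 43 members called lower in females were 35 to 51 under the other settings and 36 to 53 with 1 library left out. The 2 called higher were 1 without a low-count filter and in the limma test on the authors' normalized table, and 1 to 2 with a library left out. The female median of -0.43 was -0.33 with upper-quartile scaling, which moved the median of all genes tested to 0.13, -0.58 in the authors' table, and -0.56 to -0.39 with a library left out. Male counts stayed at 0 in every setting.

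The 30 interaction calls below 0 were 25 to 37 under the other settings and 15 to 46 with a library left out. Calls above 0 were 0 with RLE, without the 20 most abundant genes, without a low-count filter and in DESeq2, 1 in the authors' table and 0 to 2 with a library left out. The interaction median was -0.65 in the authors' table and -0.64 to -0.44 with a library left out. Between wild-type sexes the 5 lower calls were 8 with RLE, 16 with upper quartile, 8 with protein-coding genes only, 3 without a low-count filter, 11 in DESeq2 and 2 to 14 with a library left out. The 0 higher calls were 2 in the authors' table and 0 to 2 with a library left out, and the median was -0.18 in the authors' table. Between knockout sexes the 38 higher calls were 27 with upper quartile, up to 43 under the other settings and 32 to 49 with a library left out. The 2 lower calls there were 4 with upper quartile, 4 with protein-coding genes only, 1 in the authors' table and 1 to 3 with a library left out. The median was 0.27 with upper quartile. The causes were not tested.

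Single members near 0 changed sign. The interaction of Mrpl24 was -0.00124 with RLE, -0.0216 without the 20 most abundant genes, -0.00619 in DESeq2 and -0.0885 to 0.0871 with a library left out. In the authors' table the female values were -0.073 for Mrpl3, -0.52 for Mrpl42 and -0.26 for Mrps35, the interaction of Mrpl3 was -0.024 and the wild-type sex value of Mrps18b was -0.021. With upper quartile and with protein-coding genes only, the female values were 0.053 and 0.017 for Mrps10, and 0.046 and 0.0090 for Mrps31. With a library left out the female values ran from -0.033 to 0.065 for Mrpl24, -0.068 to 0.10 for Mrpl3, -0.13 to 0.22 for Mrpl42, -0.23 to 0.012 for Mrps31 and -0.037 to 0.13 for Mrps35, and the interaction of Mrps35 from -0.018 to 0.17. Of the other values of single members, 436 kept direction and call under the settings other than leaving a library out, 13 gained and 15 lost a call. With a library left out 536 kept both, 8 gained and 36 lost a call, and the 20 that changed sign belong to the members above.

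Replicate numbers did not pair the mice: the correlation across genes of same-numbered deviations from the group means was -0.13 to 0.27. With a replicate block 39 members were called lower and 2 higher in females, and the interaction had 28 and 2. Members had 18 to 1251 counts per library, and Mrpl23, with the fewest, had the widest SE.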
